A study of Mus musculus with 7 samples.

Results

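Genes that mark the endothelial lining of blood vessels, and the pericytes, smooth muscle and renin cells in the vessel wall (together called mural cells), were followed in kidneys injured by cisplatin. The 33 genes were taken by symbol from the 54532 rows of the gene count table, and all 33 passed the filter on low counts, which left 15351 genes. Of them 23 are endothelial and 10 are mural. The C57BL/6J mice were 6 to 8 weeks old, and male according to the design text. Every animal had received cisplatin, a platinum chemotherapy drug toxic to tubule cells, as a tail vein injection of 20 mg/kg. The group labelled Cis_Saline holds 4 libraries and the group labelled Cis_DXZ holds 3. DXZ, which the labels do not spell out, was injected by the same route at 40 mg/kg, with a dose 30 min ahead of cisplatin and more at 24 h intervals over 3 days. The libraries are called saline 1 to 4 and DXZ 1 to 3, after their titles. Nothing in the labels ties each library to an animal of its own, so the p-values measure the spread between these libraries, which may be partly technical. No kidney free of cisplatin was analysed here, so the levels cannot be set against healthy vessels.

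Endothelial cells hold together through junction proteins such as VE-cadherin, and their survival depends on VEGF, which the neighbouring epithelium makes and which acts on the receptor VEGFR2. The Tie receptors and the angiopoietins that bind them control how tight and quiescent the vessel is. Pericytes and smooth muscle cells are drawn to the vessel by PDGF-B acting on PDGF receptor beta, and they hold their identity through Notch signals. The kidney has several vascular beds, among them the glomerular capillaries that filter the blood and the fenestrated peritubular capillaries that take up what the tubules reabsorb. Renin is made by modified smooth muscle cells where the arteriole enters the glomerulus.

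Total counts per library ran from 16058157 to 18133736, with 20803 to 21827 genes detected and 5.18% to 8.35% of counts from mitochondrial genes. Tubule and podocyte markers were present, as the kidney label implies: 6 proximal tubule genes summed to 739 to 7374 CPM (the usual unit of counts relative to the library total, here after scaling) and 6 podocyte genes to 321 to 559 CPM. Red cell and lymphocyte markers were near 0, with sums of at most 0.672 and 2.76 CPM. Adrenal markers summed to at most 4.76 CPM, nearly all of it Star (4.70 CPM in that library). Hbb-bt, Cyp11b1 and Th had no count in any library. Fat cell markers were present and uneven: 4 adipocyte genes summed to 66.8, 24.9, 42.0 and 5.35 CPM in saline 1 to 4. In DXZ 1 to 3 they summed to 21.8, 78.0 and 48.3 CPM. DXZ 1 stood apart from DXZ 2 and DXZ 3 for most of the vascular genes, so the fits for the 33 genes are given with all 7 libraries and again without DXZ 1. Each library was left out in turn as an alternative, but showing the fit without DXZ 1 beside each gene was decided from the values of these same genes. Its p-values are therefore conditioned on the outcome: a gene that passed without DXZ 1 describes the other 6 libraries and is no independent evidence of a DXZ effect. In the limma-voom fit DXZ 1 received the lowest of the 7 quality weights, 0.463, with saline 1 next at 0.619. These weights come from the spread of the same expression values, so they are no separate evidence about DXZ 1. It had the most genes detected, 21827, and the lowest mitochondrial share, 5.18%. In whole kidney tissue, fewer cells of a type and less RNA per cell cannot be told apart.

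Across all 7 libraries no endothelial or mural gene passed the test, and the 3 DXZ libraries lay far apart from each other. DXZ 2 and DXZ 3 both lay below every saline library for 29 of the 33 genes (21 of 23 endothelial and 8 of 10 mural), against 22.0% of all tested genes. These 2 libraries were singled out from the values of these same genes. The contrast with all genes is therefore a description and no independent evidence. DXZ 1 lay above every saline library for 18 genes, inside the saline range for 14 and below it for 1, against 33.3% of all tested genes above and 27.7% below. It was the highest DXZ library for 32 of 33 genes, all but Cnn1, where 38.6% of all genes would show that order. DXZ 3 was the lowest of the 7 libraries for 28 of 33 genes, against 17.0% of all genes.

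By edgeR's quasi-likelihood test with Benjamini-Hochberg adjustment over all genes, 0 of 33 members passed at an adjusted p below 0.05, where 5.56% of all tested genes did (3.24% higher and 2.31% lower in DXZ). At an unadjusted p under 0.05 there were 2, Sox17 and Rgs5, against 25.4% of all genes. DESeq2 called 1 of 33, Rgs5, against 13.8% of all genes. The fold change was negative for 31 of 33 members, with a median of -0.50 on the log2 scale (-0.59 for endothelial and -0.25 for mural genes) against 0.01 for all genes. Without DXZ 1 the same test called 21 of 33 members, all lower in DXZ, where it called 10.1% of all genes and 5.01% in that direction. They were 17 of 23 endothelial and 4 of 10 mural genes. The median was then -1.34 (-1.40 endothelial, -0.76 mural) against -0.01 for all genes. Without saline 1 and DXZ 1 it called 21 members as well, against 8.65% of all genes. Without DXZ 2 or without DXZ 3 no member was called, and only 0.00637% and 0.897% of all genes were. The groups were disjoint for 1 of 33 members, Rgs5, against 24.1% of all genes and 11.3% with DXZ lower.

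**Figure D1:**
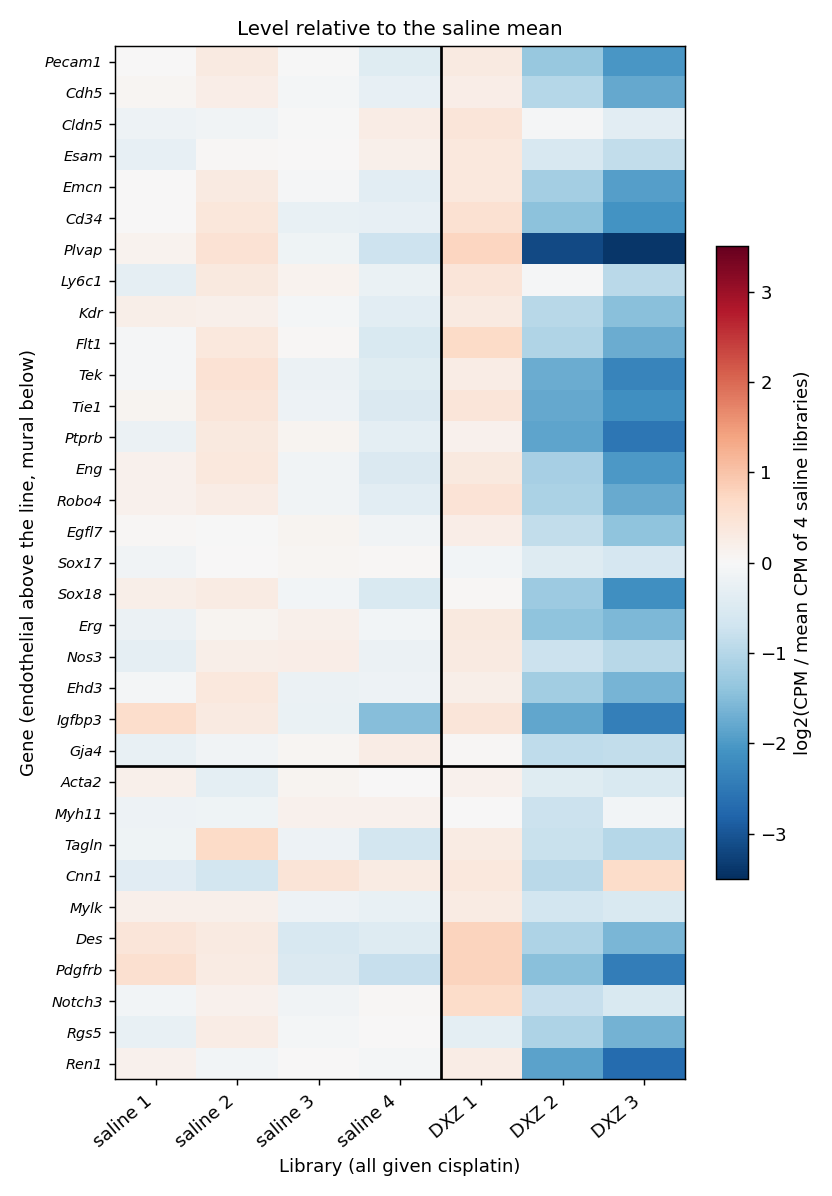
Level of each of the 33 genes (rows) in each of the 7 libraries (columns), as the log2 ratio of CPM to the mean of the 4 saline libraries; blue is lower, red is higher, and the lines part endothelial from mural genes and saline from DXZ. The columns of DXZ 2 and DXZ 3 are blue for nearly every gene, while DXZ 1 is pale red for most, and Plvap has the deepest blue.

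These genes were more spread inside the DXZ group than most of the transcriptome. The median SD of log2 CPM among DXZ libraries was 1.09 for endothelial and 0.70 for mural genes, against 0.24 for all tested genes. Among saline libraries it was 0.29 and 0.23, against 0.20 for all genes. The SD was larger in DXZ than in saline for 33 of 33 members, where it was larger for 61.0% of all genes.

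The junction and surface proteins define the endothelial cell and carry leukocytes and solutes across it. Pecam1 (chromosome 11, 106654217 to 106750628, minus strand) encodes CD31, an adhesion molecule of endothelial contacts. It measured 60.6, 75.6, 60.3 and 44.7 CPM in saline 1 to 4, and 75.5, 23.9 and 14.8 CPM in DXZ 1 to 3. DXZ 1 was thus level with the highest saline library while the other DXZ libraries lay below the lowest. The group means were 60.3 ± 12.6 (SD, n = 4) and 38.1 ± 32.7 CPM (SD, n = 3), a log2 change of -0.66 (SE 0.50, edgeR adjusted p = 0.445). Without DXZ 1 it was -1.64 (edgeR adjusted p = 0.0197).

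Cdh5 (chromosome 8, 104101625 to 104144511, plus strand), which encodes VE-cadherin, measured 31.8, 35.5, 28.7 and 25.0 CPM in saline and 35.6, 15.1 and 8.80 CPM in DXZ. Emcn, the surface sialomucin endomucin of capillaries and veins, measured 44.4, 55.4, 42.8 and 33.9 CPM in saline and 56.9, 19.4 and 11.6 CPM in DXZ. Cd34, a sialomucin shared with blood progenitors, measured 28.4, 36.9, 23.4 and 22.9 CPM in saline and 40.7, 10.3 and 6.55 CPM in DXZ. All 3 showed an order like that of Pecam1, with DXZ 1 above the top of the saline range. Their log2 changes were -0.61, -0.59 and -0.54 over all libraries (edgeR adjusted p from 0.390 to 0.595). Without DXZ 1 they were -1.34, -1.51 and -1.72 (edgeR adjusted p = 0.0250, 0.0234 and 0.0190).

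Plvap (chromosome 8, 71497765 to 71511752, minus strand) encodes the protein of the diaphragms that span the fenestrae of peritubular capillaries. It measured 159, 208, 133 and 88.7 CPM in saline, 249.1 CPM in DXZ 1, and 16.4 and 13.8 CPM in DXZ 2 and DXZ 3. The saline mean was 8.95 times the value of DXZ 2 and 10.7 times that of DXZ 3, the widest gap of any member, while DXZ 1 was 1.69 times the saline mean. The log2 change was -0.66 (SE 0.93, edgeR adjusted p = 0.707) with all libraries and -3.28 (edgeR adjusted p = 0.0169) without DXZ 1. Counts of Gtpbp3, which overlaps Plvap on the other strand, came to 10.002% of those of Plvap.

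The remaining junction and surface genes differed less. Cldn5, the tight junction claudin of endothelium, measured 12.7, 13.4, 14.3 and 17.4 CPM in saline and 19.3, 14.0 and 11.1 CPM in DXZ, and the groups overlapped. Its log2 change was 0.03 (SE 0.21, edgeR adjusted p = 0.941), and -0.20 (edgeR adjusted p = 0.466) without DXZ 1. Ly6c1, a GPI-anchored protein of mouse endothelium and monocytes with a near-identical neighbour in its family, so that its reads are uncertain, measured 103, 161, 138 and 108 CPM in saline and 169, 122.6 and 66.1 CPM in DXZ. Its log2 change was -0.09 (edgeR adjusted p = 0.883), and -0.43 (edgeR adjusted p = 0.330) without DXZ 1. Esam, an adhesion molecule of endothelial junctions, measured 30.7, 38.9, 37.9 and 42.3 CPM in saline and 48.1, 25.3 and 20.5 CPM in DXZ. It passed without DXZ 1, at -0.71 (edgeR adjusted p = 0.0383), and did not pass with it, at -0.26 (edgeR adjusted p = 0.609). Of the 8 junction and surface genes, 6 passed without DXZ 1, where 10.1% of all genes did (5.01% lower).

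**Figure D2:**
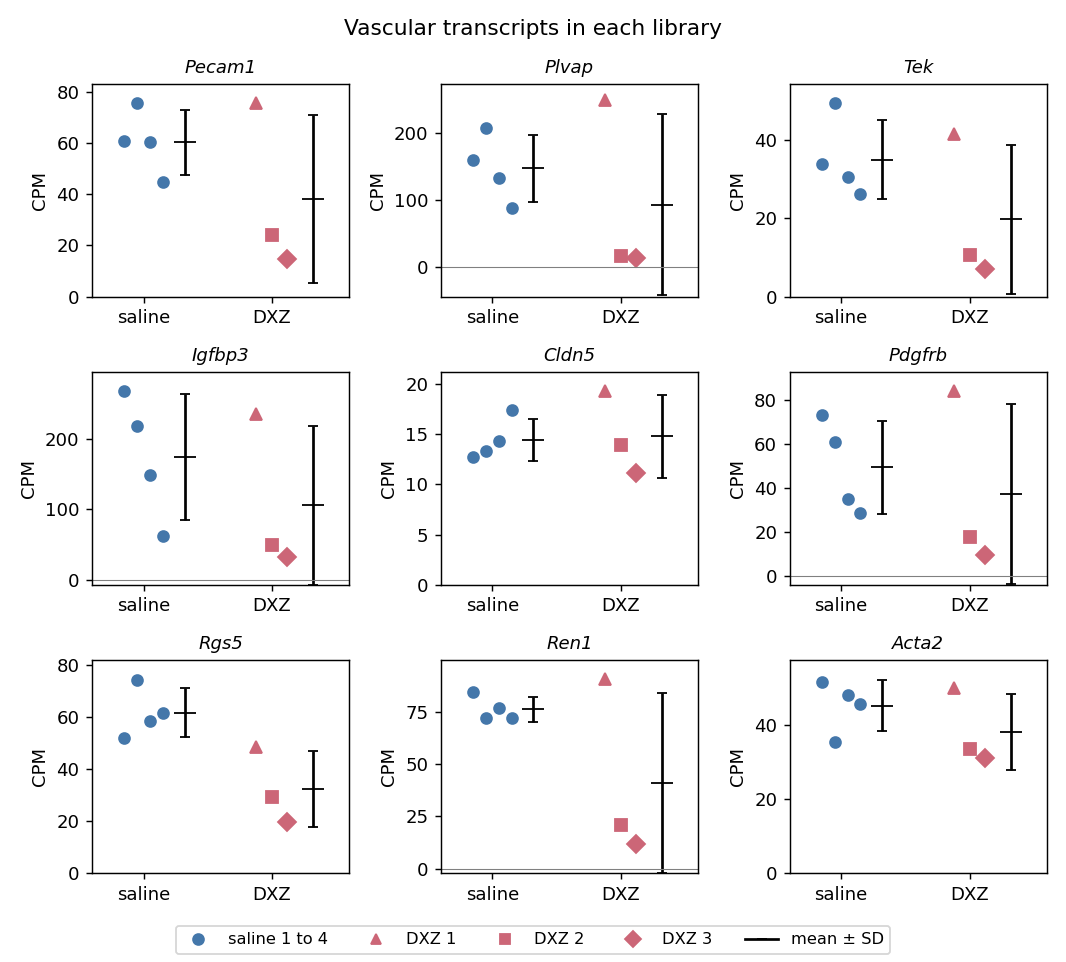
CPM of 9 vascular genes in each library (y axis), with points for the libraries of the saline and DXZ groups and bars for the group mean and SD. For Plvap, Pdgfrb and Ren1 DXZ 1 is the highest of the 7 libraries and DXZ 2 and DXZ 3 are the lowest; for Rgs5 all 3 DXZ libraries lie below saline, and for Cldn5 the groups overlap.

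Among receptors, the VEGF pair was lower in DXZ 2 and DXZ 3. Kdr (chromosome 5, 75932827 to 75978458, minus strand), which encodes the signalling receptor VEGFR2, measured 50.3, 48.5, 41.1 and 33.3 CPM in saline and 53.9, 22.1 and 15.8 CPM in DXZ. Flt1, which encodes VEGFR1, a high-affinity receptor that also acts as a decoy, measured 59.9, 78.8, 63.4 and 42.5 CPM in saline and 97.5, 29.7 and 18.3 CPM in DXZ. Both genes had DXZ 1 above every saline library and the other DXZ libraries below. With all libraries the log2 changes were -0.50 for Kdr and -0.33 for Flt1 (edgeR adjusted p = 0.459 and 0.732). Without DXZ 1 they were -1.19 and -1.35 (edgeR adjusted p = 0.0250 and 0.0345).

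The angiopoietin receptor genes showed larger differences. Tek (chromosome 4, 94739289 to 94874976, plus strand), which encodes the receptor Tie2, measured 33.8, 49.4, 30.4 and 26.3 CPM in saline and 41.5, 10.5 and 7.09 CPM in DXZ. Tie1, its partner receptor, measured 39.3, 48.9, 32.3 and 25.6 CPM in saline and 48.9, 10.6 and 8.33 CPM in DXZ. Ptprb (chromosome 10, 116275523 to 116389535, plus strand), which encodes the phosphatase VE-PTP that removes phosphate from Tie2 and VE-cadherin, measured 43.5, 63.5, 52.8 and 39.6 CPM in saline and 54.9, 13.9 and 8.68 CPM in DXZ. In this trio DXZ 1 was inside the saline range. The saline mean of Ptprb was 3.58 times DXZ 2 and 5.74 times DXZ 3. Without DXZ 1 the log2 changes were -1.99 for Tek, -1.94 for Tie1 and -2.14 for Ptprb (edgeR adjusted p = 0.0185, 0.0185 and 0.0177), and with it they were -0.82, -0.69 and -0.95 (edgeR adjusted p from 0.335 to 0.4998).

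Eng, which encodes endoglin, the co-receptor for BMP9 and TGF-beta, measured 165, 193, 137 and 105 CPM in saline and 189, 67.1 and 37.3 CPM in DXZ. Robo4, an endothelial roundabout receptor that stabilises vessels, measured 19.2, 20.8, 15.9 and 13.5 CPM in saline and 24.0, 8.04 and 5.08 CPM in DXZ. Egfl7, a secreted factor of endothelium, measured 38.0, 36.1, 38.8 and 33.4 CPM in saline and 43.1, 20.1 and 13.7 CPM in DXZ. The DXZ libraries were again placed against saline as for Kdr, except that DXZ 1 was inside the saline range for Eng. Over all libraries the log2 changes were -0.62, -0.49 and -0.51 (edgeR adjusted p from 0.379 to 0.565). Without DXZ 1 they were -1.52, -1.40 and -1.11 (edgeR adjusted p = 0.0337, 0.0255 and 0.0185). In that fit all 8 genes of the receptor group passed, where 10.1% of all genes did (5.01% lower). Genes on the other strand overlap Eng and Egfl7: Fpgs held 56.1% as many counts as Eng and Agpat2 132% as many as Egfl7. Whether counting used strand is not given in the sources used here, so the levels of both are uncertain.

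Of the endothelial transcription factors, Erg, the ETS factor that maintains endothelial identity, measured 8.37, 10.4, 10.996 and 8.99 CPM in saline and 12.2, 3.63 and 3.25 CPM in DXZ. Sox18, a SoxF factor, measured 18.3, 19.3, 14.7 and 10.9 CPM in saline and 16.4, 6.53 and 3.54 CPM in DXZ. Without DXZ 1 their log2 changes were -1.49 and -1.65 (edgeR adjusted p = 0.0182 and 0.0310), and with it -0.61 and -0.84 (edgeR adjusted p = 0.434 and 0.305). Sox17, the SoxF factor of arterial endothelium, measured 11.4, 12.5, 12.8 and 12.5 CPM in saline and 11.4, 8.95 and 8.15 CPM in DXZ. It had the smallest saline SD of the 23 endothelial genes, 12.3 ± 0.633 CPM (SD, n = 4), and DXZ 1 sat at the bottom of that range. Its log2 change was -0.37 (SE 0.15, edgeR adjusted p = 0.174), and -0.52 without DXZ 1 (edgeR adjusted p = 0.0561), so it did not pass in either fit.

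The other endothelial genes include markers of single beds. Ehd3 (chromosome 17, 73804134 to 73832094, plus strand), an endocytic trafficking protein of glomerular endothelium, measured 34.9, 47.7, 32.2 and 32.7 CPM in saline and 42.3, 15.9 and 12.05 CPM in DXZ. It passed without DXZ 1 at -1.40 (edgeR adjusted p = 0.0185) and not with it at -0.65 (edgeR adjusted p = 0.350). Igfbp3, an IGF-binding protein of peritubular capillaries, measured 268, 219, 149 and 62.4 CPM in saline and 235, 49.2 and 33.5 CPM in DXZ. The saline libraries alone thus spanned 62.4 to 268 CPM, with saline 4 well apart from saline 1. Its log2 change was -0.72 (edgeR adjusted p = 0.577), and -2.08 without DXZ 1 (edgeR adjusted p = 0.0555). Nos3, the endothelial nitric oxide synthase, measured 7.11, 10.2, 10.4 and 7.70 CPM in saline and 11.05, 5.26 and 4.55 CPM in DXZ, and Atg9b on the other strand held 52.7% as many counts. Gja4, the arterial gap junction protein connexin 37, measured 4.70, 5.23, 5.99 and 6.76 CPM in saline and 5.86, 3.08 and 3.13 CPM in DXZ. Neither passed with all libraries (log2 changes -0.35 and -0.49, edgeR adjusted p = 0.549 and 0.321) or without DXZ 1 (-0.85 and -0.87, edgeR adjusted p = 0.0576 and 0.0571).

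The promoters of these genes were read from RefSeq windows that reach from 250 bases before a transcript start to 50 after it (build GRCm38.p6). Windows were found for 22 of the 33 members, 27 windows in all. The ETS core CAGGAAG, the kind of site that Erg and its relatives bind, was searched on both strands. It occurred in 7 of 20 endothelial windows (35.0%), belonging to Cd34, Egfl7, Ehd3, Emcn, Erg and Robo4, in 0 of 7 mural windows, and in 13.3% of all 32851 windows. The CArG box, the site of serum response factor in smooth muscle genes, was searched only as the exact pattern CCWWWWWWGG, with W for A or T. It occurred in 0 of 20 endothelial and 0 of 7 mural windows and in 1.63% of all windows. Sites that differ from the pattern by a base, or that lie outside the windows, were not looked for. The count of 0 therefore does not show that these genes lack such sites. A match is a description of letters and does not show binding. Shown are the bases upstream of the start, 5′ to 3′ on the strand of the gene. They are given for a trio of endothelial genes that passed without DXZ 1 and hold the ETS motif (in capitals). They are also given for Rgs5, the mural gene whose groups were disjoint, whose window holds no exact match to either motif.
Cd34, chr1:194938571-194938818, plus strand: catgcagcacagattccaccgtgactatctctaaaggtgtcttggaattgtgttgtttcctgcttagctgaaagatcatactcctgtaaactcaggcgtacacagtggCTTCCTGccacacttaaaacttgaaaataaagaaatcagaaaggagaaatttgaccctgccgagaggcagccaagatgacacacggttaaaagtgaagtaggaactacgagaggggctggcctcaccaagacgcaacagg
Emcn, chr3:137340828-137341066, plus strand: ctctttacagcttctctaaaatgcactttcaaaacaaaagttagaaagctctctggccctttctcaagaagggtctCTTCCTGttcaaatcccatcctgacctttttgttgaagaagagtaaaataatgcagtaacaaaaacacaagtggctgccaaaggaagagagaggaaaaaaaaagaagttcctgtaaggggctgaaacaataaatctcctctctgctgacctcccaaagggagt
Egfl7, chr2:26580833-26581055, plus strand: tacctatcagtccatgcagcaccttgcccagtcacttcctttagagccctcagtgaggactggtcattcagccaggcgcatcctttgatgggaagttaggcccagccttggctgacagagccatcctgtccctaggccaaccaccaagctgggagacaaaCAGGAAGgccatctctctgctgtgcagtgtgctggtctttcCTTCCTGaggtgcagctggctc
Rgs5, chr1:169655251-169655500, plus strand: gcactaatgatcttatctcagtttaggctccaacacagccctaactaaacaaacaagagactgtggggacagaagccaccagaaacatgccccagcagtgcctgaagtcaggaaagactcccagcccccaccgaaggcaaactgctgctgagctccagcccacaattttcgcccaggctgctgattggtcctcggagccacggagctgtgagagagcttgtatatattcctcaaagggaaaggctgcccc
The motif lies on the other strand in Cd34 and Emcn, first met 142 and 174 bases before the start, and on both strands in Egfl7. Egfl7 has 3 RefSeq starts, and the window shown belongs to the most upstream of them.

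In the vessel wall, 4 of 10 genes passed without DXZ 1, where 10.1% of all genes did (5.01% lower). They were the 3 pericyte and signalling genes and Ren1. Of the 6 contractile genes 0 passed, but Des and Mylk lay near the limit (edgeR adjusted p = 0.0546 and 0.0564). Pdgfrb, called without DXZ 1, was not called without saline 1 and DXZ 1 (edgeR adjusted p = 0.0509). The groups of genes were not tested against each other. Rgs5 (chromosome 1, 169655501 to 169695813, plus strand), a G protein regulator that marks pericytes, measured 51.8, 74.2, 58.4 and 61.5 CPM in saline and 48.3, 29.1 and 19.7 CPM in DXZ. It was the only member for which DXZ 1 too lay below every saline library. The means were 61.5 ± 9.40 (SD, n = 4) and 32.4 ± 14.6 CPM (SD, n = 3), a log2 change of -0.92 (SE 0.28, edgeR adjusted p = 0.0890), the lowest adjusted p of the 33. It passed without DXZ 1 (-1.33, edgeR adjusted p = 0.0187), and with all libraries by DESeq2 (-0.93, adjusted p = 0.0129) and limma-voom with quality weights (-1.22, adjusted p = 0.0312).

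Pdgfrb (chromosome 18, 61045150 to 61085061, plus strand), the PDGF receptor beta of pericytes, mesangial cells and fibroblasts, measured 73.2, 60.7, 34.9 and 28.4 CPM in saline and 84.1, 17.8 and 9.27 CPM in DXZ. Notch3, the Notch receptor of arterial smooth muscle and pericytes, measured 23.7, 28.1, 23.3 and 25.7 CPM in saline and 39.1, 14.5 and 17.5 CPM in DXZ. The saline libraries differed 2.58-fold for Pdgfrb and DXZ 1 was above them all for both genes. With all libraries neither passed (-0.41 and -0.09, edgeR adjusted p = 0.757 and 0.895). Without DXZ 1 both did (-1.86 and -0.65, edgeR adjusted p = 0.0469 and 0.0349).

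Ren1 (chromosome 1, 133350510 to 133360325, plus strand), which encodes renin, the enzyme that starts the angiotensin cascade, measured 84.7, 72.1, 76.9 and 72.3 CPM in saline. DXZ 1 measured 90.9 CPM, above all of these, and DXZ 2 and DXZ 3 measured 20.8 and 11.8 CPM. The saline group was tight, 76.5 ± 5.92 CPM (SD, n = 4), and its mean was 3.68 times DXZ 2 and 6.48 times DXZ 3. The log2 change was -0.89 (SE 0.60, edgeR adjusted p = 0.387), and -2.23 without DXZ 1 (edgeR adjusted p = 0.0140), the lowest adjusted p of any member in that fit.

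Of the 6 contractile genes, 0 passed with or without DXZ 1. Acta2 (chromosome 19, 34241090 to 34255336, minus strand), the smooth muscle actin, measured 51.8, 35.5, 48.3 and 45.8 CPM in saline and 50.05, 33.6 and 31.1 CPM in DXZ. Its log2 change was -0.25 (SE 0.19, edgeR adjusted p = 0.469), and -0.49 without DXZ 1 (edgeR adjusted p = 0.0879). Myh11, the smooth muscle myosin heavy chain, measured 20.9, 21.2, 25.8 and 25.9 CPM in saline and 23.6, 14.0 and 21.8 CPM in DXZ, where only DXZ 2 left the saline range. Mylk, the myosin light chain kinase, measured 72.2, 72.1, 56.2 and 53.5 CPM in saline and 77.9, 40.6 and 43.9 CPM in DXZ. Des, the intermediate filament desmin of muscle and mesangial cells, measured 22.6, 21.2, 11.5 and 12.3 CPM in saline and 29.0, 8.04 and 5.61 CPM in DXZ, an order like that of Pdgfrb. The log2 changes of Myh11, Mylk and Des were -0.24, -0.23 and -0.25 over all libraries (edgeR adjusted p from 0.466 to 0.818). Without DXZ 1 they were -0.39, -0.59 and -1.31 (edgeR adjusted p = 0.228, 0.0564 and 0.0546).

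Cnn1, the actin-binding calponin, and Tagln, the actin-binding transgelin, were low. Cnn1 measured 1.43, 1.19, 2.57 and 2.29 CPM in saline and 2.42, 0.968 and 2.89 CPM in DXZ, and DXZ 3 was above saline. Tagln measured 0.745, 1.31, 0.733 and 0.529 CPM in saline and 1.01, 0.484 and 0.413 CPM in DXZ. Pcsk7, on the other strand at the Tagln locus, held 4439% as many counts as Tagln, so the Tagln level is uncertain. Neither gene passed (log2 changes 0.17 and -0.37, edgeR adjusted p = 0.854 and 0.680), nor did they without DXZ 1 (0.05 and -0.87, edgeR adjusted p = 0.957 and 0.284).

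**Figure D3:**
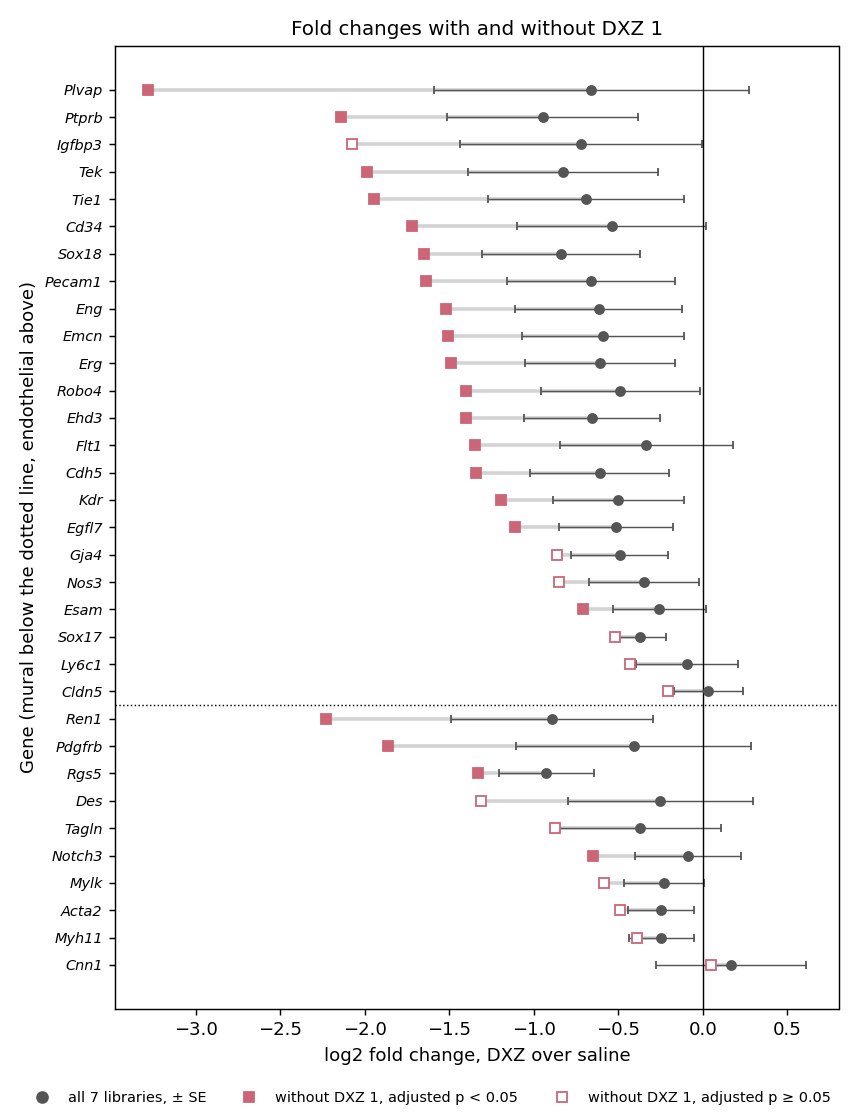
Log2 fold change of DXZ over saline (x axis) for the 33 genes, from edgeR's quasi-likelihood fit. Grey circles show all 7 libraries with bars of ± SE, and squares show the fit without DXZ 1, filled where the adjusted p was under 0.05, a fit shown because of these genes' own values; 21 squares are filled, from -3.28 for Plvap to -0.65 for Notch3.

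Levels can be compared between genes only per transcript length, here in FPKM, the deposited unit that divides by gene length and library size. In saline kidneys Ly6c1 (75.5 ± 15.8 FPKM, SD, n = 4), Plvap (73.7 ± 24.8 FPKM) and Igfbp3 (55.4 ± 28.3 FPKM) led the endothelial genes, and their libraries overlapped in level. Eng followed at 36.8 ± 9.16 FPKM, with libraries that overlapped those of Igfbp3. Between Eng and the next gene, Esam at 13.0 ± 1.73 FPKM, the saline libraries did not overlap, whereas every later pair of neighbours down to Nos3 at 2.13 ± 0.403 FPKM did. Among mural genes Ren1 was highest at 46.0 ± 3.51 FPKM, apart from Acta2 at 25.4 ± 3.93 FPKM, which was in turn apart from Rgs5 at 13.5 ± 2.04 FPKM. Rgs5 overlapped the next gene, Pdgfrb (8.95 ± 3.83 FPKM). From there Mylk, Des, Notch3 and Myh11 continued a run of overlapping neighbours down to 3.07 ± 0.374 FPKM. Cnn1 and Tagln were lowest, at 0.681 ± 0.242 and 0.415 ± 0.166 FPKM.

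How far each endothelial gene lay from the others was described within each library. For each gene and library the log2 CPM was set against the median of the 23 endothelial genes in that library, and the saline mean of this departure was subtracted. Plvap departed by -1.82 in DXZ 2 and -1.63 in DXZ 3, well under the saline range. Ptprb (-0.54 and -0.78), Tek (-0.41 and -0.54), Tie1 (-0.46 and -0.37) and Cd34 (-0.13 and -0.34) were also under their saline ranges in both libraries. At the other end Cldn5 departed by 1.23 and 1.34 and Ly6c1 by 1.24 and 0.78, both over their saline ranges. Sox17 (0.82 and 1.12), Esam (0.71 and 0.85), Nos3 (0.55 and 0.78), Gja4 (0.43 and 0.88), Egfl7 (0.41 and 0.30) and Ehd3 (0.08 and 0.12) were above theirs as well. Reads of Ly6c1 may belong to its near-identical neighbour, and Egfl7 and Nos3 overlap well-counted genes on the other strand. The departures of Ly6c1, Egfl7 and Nos3 are therefore uncertain. In saline Ehd3 was itself the median gene in 3 of 4 libraries, so its range there is narrow by construction. In all, 5 of 23 endothelial genes were under and 8 over the saline range in both libraries, while DXZ 1 stayed within it for 17. Among the 10 mural genes, set against their own median, Ren1 was under the saline range in both libraries (-0.94 and -1.59), and Acta2 (0.52 and 0.56) and Mylk (0.30 and 0.57) were over it. Centring on a list's own median puts genes on both sides by construction, and no share over all genes was computed, so the counts are descriptions with no test.

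**Figure D4:**
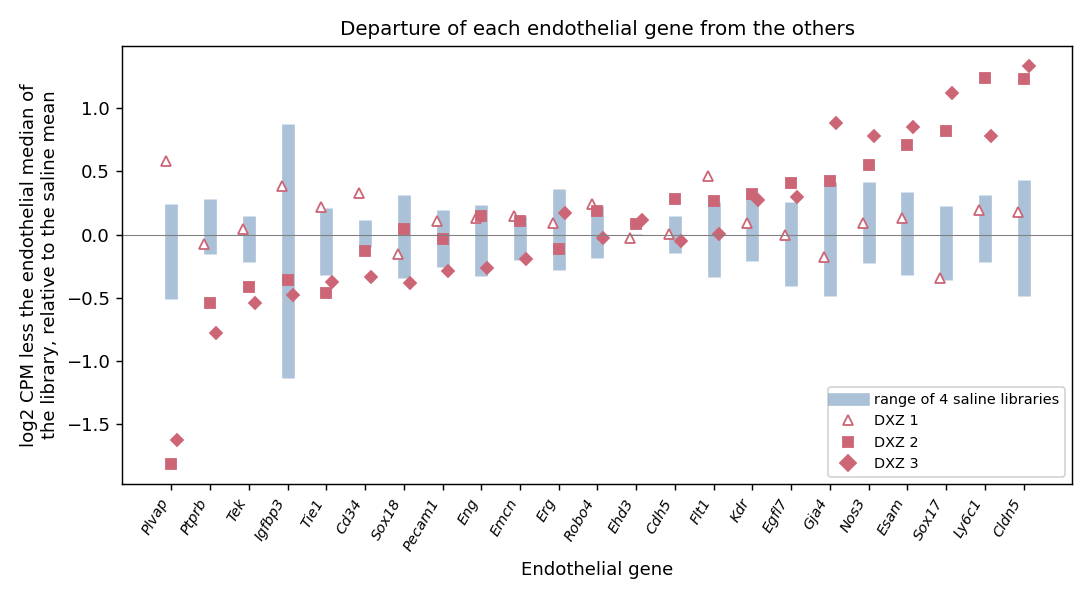
Departure of each endothelial gene (x axis) from the median endothelial gene of the same library, as log2 CPM relative to the saline mean (y axis), with bars for the range of the 4 saline libraries and symbols for the DXZ libraries. Plvap lies far under its bar in DXZ 2 and DXZ 3, Cldn5 and Ly6c1 lie over theirs, and DXZ 1 is inside or close to most bars.

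Lists of markers for the vascular beds were read beside the shares of all genes called, 5.56% with all libraries and 10.1% (5.01% lower) without DXZ 1. The lists hold 4 to 8 genes, too few to set a count against those shares. The peritubular list (Plvap, Igfbp3, Npr3 and Igfbp5) had a summed level of 398 to 700 CPM among saline libraries, which was 638, 107 and 89.3 CPM in DXZ 1 to 3. Its median log2 change was -0.88, and -2.26 without DXZ 1. All 4 genes were then lower and 3 of them were called. Igfbp5, an IGF-binding protein, measured 257, 154, 141 and 237 CPM in saline and 146, 34.1 and 38.6 CPM in DXZ, and passed without DXZ 1 (-2.44, edgeR adjusted p = 0.0177) but not with it (-1.44, edgeR adjusted p = 0.136). Npr3, the natriuretic peptide clearance receptor, measured 16.5, 12.8, 11.5 and 10.2 CPM in saline and 8.06, 7.01 and 3.48 CPM in DXZ, so that DXZ 1 too was below saline. Its log2 change was -1.04 (SE 0.30, edgeR adjusted p = 0.0797), and -1.28 without DXZ 1 (edgeR adjusted p = 0.0490).

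Of 7 tested glomerular capillary genes, 0 passed with all libraries and 1, Ehd3, without DXZ 1, with medians of 0.01 and 0.00. Plat, the tissue plasminogen activator, measured 80.8, 192, 129 and 150 CPM in saline and 316, 272 and 137 CPM in DXZ, and Gata5, a GATA factor of glomerular endothelium, measured 0.688, 0.892, 1.41 and 1.76 CPM in saline and 0.789, 0.302 and 0.236 CPM in DXZ. Neither passed (edgeR adjusted p = 0.183 and 0.157, and 0.322 and 0.0584 without DXZ 1). Of 8 arterial genes, 0 passed with all libraries and 1 without DXZ 1, the Notch ligand Dll4 (-1.64, edgeR adjusted p = 0.0190). Its values were 9.40, 6.48, 6.23 and 7.11 CPM in saline and 8.68, 2.54 and 2.13 CPM in DXZ, and Dll4 is named here after these were seen.

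The venous list of 4 genes had 0 calls with all libraries and 2 without DXZ 1. Nr2f2, the COUP-TFII factor that sets venous identity, measured 70.9, 73.0, 60.7 and 63.7 CPM in saline and 61.1, 39.2 and 38.3 CPM in DXZ (-0.79 without DXZ 1, edgeR adjusted p = 0.0185). Ephb4, the venous ephrin receptor, measured 73.5, 94.4, 72.2 and 74.5 CPM in saline and 95.6, 48.9 and 48.3 CPM in DXZ (-0.69 without DXZ 1, edgeR adjusted p = 0.0299). Over all libraries the log2 changes were -0.54 and -0.29 (edgeR adjusted p = 0.106 and 0.506). DXZ 1 was the highest of the 7 libraries for Ephb4 and near the bottom of the saline range for Nr2f2. In the lymphatic list 1 of 5 tested genes was called higher in DXZ with all libraries. Without DXZ 1, 2 were called lower, Flt4 and Mmrn1. Flt4, the VEGF-C receptor VEGFR3, measured 13.2, 12.01, 8.25 and 6.46 CPM in saline and 17.1, 3.75 and 2.83 CPM in DXZ (-1.60 without DXZ 1, edgeR adjusted p = 0.0352, and -0.33 with it, edgeR adjusted p = 0.774). Mmrn1, multimerin, measured 1.20, 2.20, 2.38 and 0.470 CPM in saline, 1.69 CPM in DXZ 1 and had no count in DXZ 2 and DXZ 3 (edgeR adjusted p = 0.0350 without DXZ 1, 0.496 with it). Both are named after their values were seen. The gene called higher was Pdpn, podoplanin, which podocytes and other epithelia also make, at 9.57, 9.34, 14.5 and 12.2 CPM in saline and 20.9, 18.1 and 18.8 CPM in DXZ (0.76, SE 0.18, edgeR adjusted p = 0.0484). That call was lost without DXZ 1 (edgeR adjusted p = 0.0630) and when any other library but saline 3 was left out (edgeR adjusted p from 0.0966 to 0.117).

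Ligands and partners of the 33 genes were read from 10 further lists, 94 genes of which 92 were tested. The shares of all genes called, 5.56% with all libraries and 10.1% (5.01% lower) without DXZ 1, apply to each list below. Each list holds 3 to 13 genes, too few to set a count against those shares. With all libraries 1 was called higher and 0 were called lower in DXZ (1 of 92, where 5.56% of all genes were called), and the median log2 change was -0.15. Without DXZ 1, 2 were called higher and 22 called lower, with a median of -0.40, where 10.1% of all genes were called (5.01% lower). The gene called with all libraries was Pdgfa, the PDGF-A ligand that acts on PDGF receptor alpha, at 20.2, 25.5, 23.2 and 20.5 CPM in saline and 39.0, 38.3 and 41.4 CPM in DXZ. Here DXZ 1 lay beside the other DXZ libraries and the groups did not overlap (0.83, SE 0.11, edgeR adjusted p = 0.0204). Leaving out saline 4 or DXZ 2 ended that call (edgeR adjusted p = 0.0747 and 0.0655).

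Among VEGF and PDGF ligands, Vegfa, made mainly by podocytes and tubules, measured 140, 102, 114 and 135 CPM in saline and 80.3, 95.5 and 110 CPM in DXZ (-0.37, edgeR adjusted p = 0.178, and -0.26 without DXZ 1, edgeR adjusted p = 0.2995). Its lowest value was in DXZ 1, where Kdr and Flt1 were highest. Pdgfb, the ligand that endothelium sends to pericytes, measured 45.6, 45.4, 30.7 and 33.9 CPM in saline and 50.4, 22.0 and 23.0 CPM in DXZ (-0.79 without DXZ 1, edgeR adjusted p = 0.0446), and is named here after its values were seen. Of 8 VEGF ligands and co-receptors, 3 passed without DXZ 1, all lower: Vegfd, Nrp2 and the lymphatic receptor Flt4. Among angiopoietins 0 of 3 passed in either fit. Angpt1, the Tie2 agonist that pericytes and podocytes release, measured 10.4, 10.9, 13.4 and 10.3 CPM in saline and 7.50, 7.07 and 7.50 CPM in DXZ, without overlap (-0.62, SE 0.15, edgeR adjusted p = 0.0542). Angpt4 measured 0.654 to 1.41 CPM in saline and 0.827 to 2.72 CPM in DXZ (edgeR adjusted p = 0.248).

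In the Notch list 0 of 12 genes passed with all libraries and 3 without DXZ 1, Dll4, Notch4 and Heyl, all lower. Notch4, the endothelial Notch receptor, measured 21.1, 23.9, 22.0 and 22.7 CPM in saline and 31.6, 11.5 and 8.09 CPM in DXZ (-1.19 without DXZ 1, edgeR adjusted p = 0.0185), and is named after its values were seen. Notch1, the Notch receptor shared with many cell types, measured 17.2 to 20.7 CPM in saline and 12.8 to 20.4 CPM in DXZ (-0.27, edgeR adjusted p = 0.387). Hey1, a Notch target, measured 0.917 to 1.53 CPM in saline and 2.03, 0.423 and 9.27 CPM in DXZ, so DXZ 3 alone gave its mean change of 1.79 (edgeR adjusted p = 0.215).

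Of the 12 genes of the endoglin and BMP list, 0 passed with all libraries, and without DXZ 1 Acvrl1 was called lower and Smad1 called higher. Smad1, a transducer of BMP signals, measured 22.5, 27.0, 23.5 and 22.9 CPM in saline and 28.3, 36.4 and 35.8 CPM in DXZ, without overlap (0.48, edgeR adjusted p = 0.0596, and 0.59 without DXZ 1, edgeR adjusted p = 0.0267). Acvrl1, the ALK1 receptor that works with endoglin, measured 20.4, 23.4, 16.4 and 14.0 CPM in saline and 27.7, 8.47 and 6.91 CPM in DXZ (-1.27 without DXZ 1, edgeR adjusted p = 0.0275), and is named after its values were seen. Tgfbr2, the type II TGF-beta receptor, measured 96.7 to 152 CPM in saline and 148 to 194 CPM in DXZ (0.44, edgeR adjusted p = 0.142).

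Other endothelial transcription factors gave 0 calls of 12 tested with all libraries. Without DXZ 1, 3 were called, all lower: Fli1, Lmo2 and Mef2c. Klf4, a factor that blood flow induces, measured 11.3, 24.4, 19.2 and 18.5 CPM in saline and 30.2, 27.2 and 27.0 CPM in DXZ (0.62, edgeR adjusted p = 0.138, and 0.56 without DXZ 1, edgeR adjusted p = 0.186), and Ets2 measured 88.3 to 125 CPM in saline and 114 to 164 CPM in DXZ (0.42, edgeR adjusted p = 0.151). Leukocyte adhesion and haemostasis genes gave 0 calls of 12 with all libraries, and Icam2 and Thbd were called lower without DXZ 1. F3, tissue factor, which starts coagulation, measured 34.2, 47.5, 36.3 and 27.4 CPM in saline and 68.1, 70.5 and 50.1 CPM in DXZ, without overlap (0.79, edgeR adjusted p = 0.0551, and 0.73 without DXZ 1, edgeR adjusted p = 0.0739).

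Vasoactive genes gave 0 calls of 12 with all libraries. Without DXZ 1, 5 were called, all lower: Agtr1a, Npr1, Npr3, Ptgis and Gucy1b1. Agtr1a, the angiotensin receptor AT1a, measured 37.3, 29.5, 20.3 and 23.8 CPM in saline and 18.3, 14.9 and 8.33 CPM in DXZ (-1.002, edgeR adjusted p = 0.0860, and -1.25 without DXZ 1, edgeR adjusted p = 0.0492). DXZ 1 was below saline for Agtr1a and above it for Ren1. The smooth muscle contractile programme gave 0 calls of 9 tested with all libraries, and Lmod1 and Myl9 were called lower without DXZ 1. Lmod1, the actin nucleator leiomodin 1, measured 3.67, 4.22, 4.46 and 3.70 CPM in saline and 2.71, 2.06 and 1.95 CPM in DXZ, without overlap (-0.84, edgeR adjusted p = 0.0689, and -0.999 without DXZ 1, edgeR adjusted p = 0.0454). Tpm1, a tropomyosin of many cell types, measured 121 to 157 CPM in saline and 154 to 204 CPM in DXZ (0.39, edgeR adjusted p = 0.109). The pericyte and mesangial list gave 0 calls of 7 with all libraries. Kcnj8, a potassium channel subunit of pericytes, was called lower without DXZ 1 (-1.73, edgeR adjusted p = 0.0272), and is named after its values were seen. Akr1b7, an aldo-keto reductase of renin cells, measured 1.43, 1.49, 1.34 and 1.94 CPM in saline and 1.24, 0.423 and 0.827 CPM in DXZ (-0.89, edgeR adjusted p = 0.208), and Gata3, a GATA factor of mesangial cells and collecting duct, measured 8.71 to 14.5 CPM in saline and 12.6 to 25.6 CPM in DXZ (0.62, edgeR adjusted p = 0.207).

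Macrophage and fibroblast lists had the library order of the vascular lists, and a neutrophil list did not. Lists were scored in each library by averaging log2 CPM over their genes, with the average over the 7 libraries taken off. The endothelial score, in the order of the library numbers, was 0.36, 0.62, 0.34 and 0.06 for saline and 0.70, -0.79 and -1.30 for DXZ. The mural score was 0.31, 0.32, 0.17 and 0.09 in saline and 0.57, -0.70 and -0.76 in DXZ. The macrophage score of 10 genes was 0.37, 0.82, 0.03 and -0.50 in saline and 1.44, -0.86 and -1.30 in DXZ, and its genes together made 114 to 237 CPM in saline and 389, 131 and 76.8 CPM in DXZ. The score of 8 fibroblast and matrix genes was 1.13, 1.18, 0.25 and -0.88 in saline and 1.58, -1.36 and -1.90 in DXZ, and its genes together made 116 to 497 CPM in saline and 736, 80.4 and 48.7 CPM in DXZ. No gene of these lists was at 0 in every library. The endothelial, mural, macrophage and fibroblast lists had DXZ 1 highest and DXZ 3 lowest of the 7 libraries. The neutrophil score was -0.80, 0.04, 0.31 and -0.48 in saline and 1.26, 0.08 and -0.41 in DXZ, so that DXZ 2 and DXZ 3 were inside the saline range. Its 5 genes together made 3.73 to 8.25 CPM in saline and 16.6, 7.32 and 4.78 CPM in DXZ. Of 6 T and B cell genes only Cd8a was tested, and DXZ 2 was inside the saline range for it. Of the 10 macrophage genes 1 was called with all libraries, Cd68, higher in DXZ, and of the 8 fibroblast and matrix genes 0 were. The share of all genes called was 5.56%. Without DXZ 1 Cd68 was again called higher, and 3 macrophage genes (Csf1r, C1qa and C1qc) were called lower. In that fit 2 fibroblast and matrix genes (Col1a1 and Pdgfra) were called lower too, where 10.1% of all genes were called (5.01% lower). These lists are too short to set a count against those shares.

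The podocyte score was -0.12, 0.06, 0.21 and 0.38 in saline and 0.04, -0.17 and -0.41 in DXZ. DXZ 2 and DXZ 3 were thus below every saline library and DXZ 1 inside the saline range, as for members such as Tek and Ptprb, over a smaller span. The proximal tubule score was 1.41, 0.63, 0.32 and 0.69 in saline and -0.55, -1.53 and -0.96 in DXZ. Here DXZ 1 was below saline with the other DXZ libraries. With all libraries 4 of the 6 proximal tubule genes passed, all lower, where 5.56% of all genes passed (2.31% lower). Without DXZ 1, 5 of them passed, all lower, where 10.1% of all genes did (5.01% lower). The proliferation score was -0.39, 0.69, -0.21 and -1.04 in saline and 1.51, 0.36 and -0.92 in DXZ, with DXZ 1 highest and the other DXZ libraries inside the saline range. The part that the amounts of stromal, immune and fat cells had in the vascular differences was not tested.

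**Figure D5:**
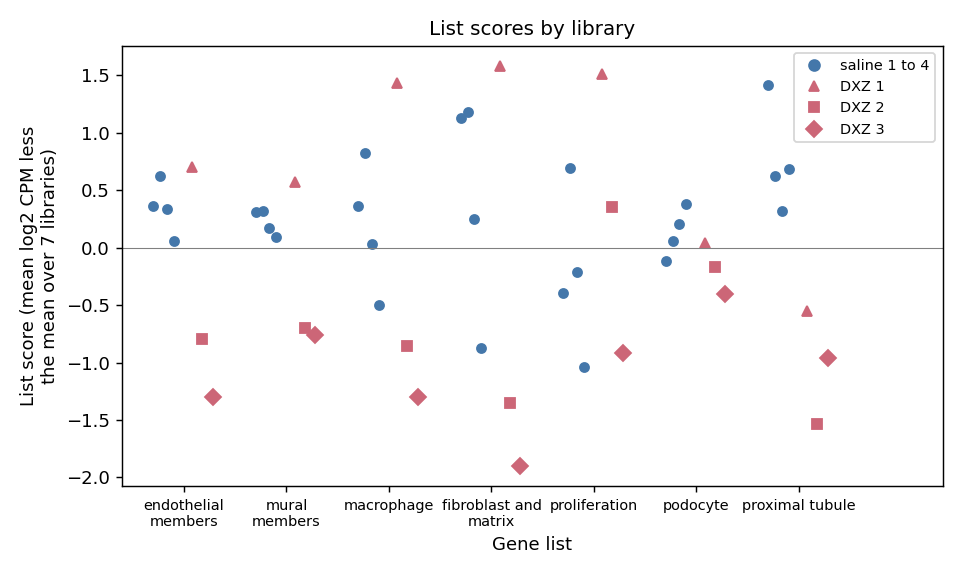
List scores (y axis, mean log2 CPM less the mean over the 7 libraries) of the endothelial and mural genes and of 5 marker lists for other cells, with a point per library. DXZ 1 tops the endothelial, mural, macrophage, fibroblast and proliferation lists, DXZ 2 and DXZ 3 lie under saline in the first 4 of those, and all 3 DXZ libraries lie under saline for the proximal tubule.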

How the data were processed

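Total RNA from kidneys was extracted with Trizol and sequenced on Illumina libraries, per the labels. The authors deposited whole-number read counts per gene, used here without change, and FPKM values of the same counts, which were used for levels between genes and as an alternative unit. The submitters' processing notes name the tools HISAT2 and StringTie and the build mm9, with no roles. The deposited coordinates are not mm9: of 54409 gene identifiers shared with GENCODE M21 on GRCm38, 53499 (98.3%) have the same start and end, members 31 of 33, and coordinates are given as deposited and taken as GRCm38. No source used here gives the counting program or its use of strand.

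The comparison of DXZ with saline used edgeR 4.0.16 in R 4.3.3 (filterByExpr, TMM scaling, quasi-likelihood F test, two-sided, Benjamini-Hochberg over all 15351 tested genes, adjusted p below 0.05), after checks on simulated counts. CPM are relative to the TMM-scaled library size, SE is the log2 fold change over the square root of F, and list scores use a prior count of 2. DESeq2 1.42.0, limma 3.58.1 (voom with quality weights, and limma-trend on log2 of FPKM plus 1 or 0.1), other scalings and filters, a minimum fold of 1.5, each library left out, saline 1 and DXZ 1 both left out, and the replicate block were alternatives. Chi-square values per degree of freedom between replicates were 14 to 90.36, far over counting noise, and every library was kept as its own sample.

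The members and the gene lists, from textbook knowledge, were chosen with earlier results of these data known. All 33 members are named. Of each partner or bed list, genes past the threshold were named, otherwise the 2 of lowest p; other genes are said to be named after their values were seen, or are only listed as passing without DXZ 1. A gene that this rule names in the leukocyte adhesion and haemostasis list is not reported here.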

Additional observations from a re-analysis of the deposited data

Results flagged for a closer look

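Ephb4, the venous ephrin receptor, measured 94.4 CPM in saline 2 against 72.2 to 74.5 CPM in the other saline libraries. The gap to the nearest of them was 0.898 of the whole range of the group, over Dixon's 95% limit for a group of 4. It was the only 1 of 58 genes checked (the 33 members and 25 other named genes), and chance flags about 1 in 20.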

How the results depend on the processing

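Results with all 7 libraries rest on few samples and on which are kept. With the edgeR test 853 of all genes were called; DESeq2 called 2116, the test against a minimum fold of 1.5 called 3, limma on log2(FPKM + 1) with no filter 145, the fit without saline 1 and DXZ 1 1332, and fits that left out 1 library between 1 and 1574. Of the 33 members 0 were called, where 5.56% of all genes were. With no filter, with DESeq2 and with limma-voom 1 member was called (Rgs5, 3.03% of members). The shares of all genes called there were 3.62%, 13.8% and 5.48%. Without saline 1 and DXZ 1, 21 members were called, against 8.65% of all genes. When 1 library was left out 0 to 21 were called. Of these fits only the one without DXZ 1 reached 21, against 10.1% of all genes. The replicate block called 85 genes and 0 members. Correlations of same-numbered libraries' deviations (0.258, -0.088 and 0.226) did not pair the numbers. The sign of a fold change reversed in 15 of 655 member values, for 7 genes. When 1 library was left out, log2 changes ranged from -0.20 to 0.19 for Cldn5, -0.43 to 0.19 for Ly6c1, -1.35 to 0.041 for Flt1, -0.15 to 0.49 for Cnn1, -1.31 to 0.11 for Des, -1.86 to 0.030 for Pdgfrb and -0.65 to 0.15 for Notch3. Without DXZ 3 all of these but Cldn5 reversed, and without DXZ 1 only Cldn5 did. Cldn5 was also -0.14 by limma-voom and -0.26 without saline 1 and DXZ 1, where Cnn1 was -0.061. The cause was not tested. Leave-outs of list scores were added after seeing the data. So were FPKM and unscaled CPM for the member levels, and a prior count of 0.5 for the departures. None moved a count of genes by more than 1.5-fold, or a score difference by more than its pooled SD within groups. That SD is wide because the DXZ libraries lay far apart. For the endothelial score the SD was 1.04 in DXZ and 0.23 in saline. Staying inside that limit therefore does not show that the scores were stable.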
